A study of Mus musculus with 19 samples.

Results

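The genes described here encode tau, the neurofilaments and other main proteins of the neuronal cytoskeleton. They were chosen by name, through their Ensembl identifiers in GENCODE M21: Mapt, Map2, Map1b, Nefl, Nefm, Nefh, Ina, Stmn2, Gap43 and Tubb3. These are 10 of the 48709 genes in each count file, and all 10 passed the filter on low counts. RNA was measured by sequencing of polyA RNA from the microdissected CA1 region of the mouse hippocampus, in 19 libraries from mice that were 7 months old. The study asked whether hippocampal gene expression changed in mice that deposit amyloid, and whether it changed again when microRNAs were inhibited.

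WT control (n = 6) were wild-type littermates. The titles of these libraries carry the name of the inhibitor mixture beside the word control, while the study describes the animals as given control RNA, and that reading was used. APP control (n = 6) were APPPS1-21 mice given the control oligonucleotide. APP anti-miR-mix (n = 7) were APPPS1-21 mice given 3 inhibitors, directed at miR-181a-5p, at miR-148a-3p and at miR-146a-5p, and are called anti-miR-mix mice. All oligonucleotides were packed in lipid nanoparticles and injected into the dorsal hippocampus, so that every group had the injection and none was untouched. The APPPS1-21 line expresses mutant human APP from the Thy1 promoter, which is active in neurons. The transgenic background and the amyloid it causes therefore cannot be told apart as a source of a difference from wild type, and the line carries no tau transgene.

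Microtubules are hollow tubes of tubulin that serve as tracks for transport in axons and dendrites. Tau, encoded by Mapt, binds them mainly in axons, while MAP2 binds them in the cell body and dendrites, and MAP1B is best known from growing axons. Neurofilaments are the intermediate filaments of neurons, assembled from light, medium and heavy chains together with alpha-internexin, and they set the calibre of large axons. Tau and the neurofilament light chain are widely used as fluid markers of neuronal injury. None of this says how much of the protein was present, since only RNA was measured.

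The sequences of the 3 inhibited microRNAs are shown because some of the 10 genes hold matches to them. They are RefSeq mature sequences (GRCm38.p6), written 5′ to 3′ with the seed, bases 2 to 8, in capitals. No 2 of them share a seed.
miR-181a-5p: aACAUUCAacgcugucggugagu
miR-148a-3p: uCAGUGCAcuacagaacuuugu
miR-146a-5p: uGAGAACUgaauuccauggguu

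Each inhibitor is complementary to its microRNA without a mismatch over the inhibitor's whole length. That of miR-181a-5p pairs with bases 3 to 23, that of miR-148a-3p with bases 3 to 21, and that of miR-146a-5p with bases 2 to 21, so each covers most or all of the seed. The control oligonucleotide for inhibitors holds no match to any of the 3 seeds.
Inhibitor of miR-181a-5p: actcaccgacagcgttgaatg
Inhibitor of miR-148a-3p: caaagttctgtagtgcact
Inhibitor of miR-146a-5p: acccatggaattcagttctc
Control oligonucleotide: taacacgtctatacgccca

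Seed matches were searched on the transcript strand in the longest annotated 3′ UTR of each gene. A match was the complement of bases 2 to 8 of the microRNA, or of bases 2 to 7 followed by A, which gives TGAATGT or GAATGTA (miR-181a-5p), TGCACTG or GCACTGA (miR-148a-3p), and AGTTCTC or GTTCTCA (miR-146a-5p). Both forms overlap where a site holds the longer match followed by A. Of 15416 genes with a 3′ UTR, 24.17% held a match of miR-181a-5p, 23.72% one of miR-148a-3p and 21.8% one of miR-146a-5p. Mapt, Map1b, Nefl, Ina and Gap43 held 9 matches between them, and Map2, Nefm, Nefh, Stmn2 and Tubb3 held none. The matches for miR-181a-5p and miR-148a-3p are printed here, because Mapt and Map1b are on the study's list of predicted targets of the first and Gap43 is on that of the second. The match is in capitals, and coordinates are on GRCm38.
Mapt, plus strand, chr11:104331973-104332002: gcttagcttagcttcctgtctgTGAATGTc
Map1b, minus strand, chr13:99424839-99424868: cattttgccttaggaagtgactTGAATGTA
Map1b, minus strand, chr13:99422383-99422412: tgaatggtttccccagtgtataTGAATGTt
Gap43, minus strand, chr16:42248748-42248777: tgcagtcatcttgggaaattctTGCACTGt

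Matches for miR-146a-5p lay in Mapt (2), Map1b (1), Nefl (1) and Ina (1). The 2 in Mapt are shown as the pair in 1 transcript, and that of Nefl and that of Ina as the only matches those genes held. A match is a description of the sequence and not evidence that the microRNA binds there.
Mapt, plus strand, chr11:104329097-104329126: cacaggaaaagctgctttactgAGTTCTCA
Mapt, plus strand, chr11:104329206-104329235: tgcctcttgggggacctctgcctGTTCTCA
Nefl, plus strand, chr14:68087452-68087481: tattcccaactattccaggaaaAGTTCTCc
Ina, plus strand, chr19:47023821-47023850: tgcagtcctggagcagaggaggAGTTCTCc

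Total counts were between 19362343 and 37018917 per library, and each of the 10 genes had at least 1743 reads in every library, so counting error was small beside the spread between animals. In all libraries together the 10 genes took between 0.4355% and 0.5149% of the counts. The CA1 pyramidal marker list was found in every library, with summed normalized counts from 26090 to 41370 and none of its 6 matched genes at 0. Lists of other regions were also found in every library. Their sums ran from 8974 to 13460 for neocortex and subiculum, 4282 to 5371 for CA3 and 3002 to 6277 for dentate granule cells. Those of thalamus ran from 3440 to 6416 and those of choroid plexus from 3948 to 10290. Of 8 genes of amyloid-responsive glia, 8 rose in APP controls and 8 in anti-miR-mix mice against WT controls, and their summed level ran from 15590 to 30010 in WT controls, 33040 to 90930 in APP controls and 43950 to 80800 in anti-miR-mix mice. Of 8 interneuron markers DESeq2 called 3 as lower in APP controls (Gad1, Gad2 and Npy) and 3 in anti-miR-mix mice (Sst, Npy and Gad1). Of these edgeR called 1 (Gad1) and 2 (Sst and Npy), and the calls that edgeR did not make also ended when a single library was left out. The summed level of the 8 ran from 33850 to 37500 in WT controls, 28890 to 31580 in APP controls and 28350 to 32620 in anti-miR-mix mice. None of 9 general neuronal markers was called in any comparison. All 9 lay below 0 against WT controls in both groups of APP mice, with medians of -0.11 in APP controls and -0.13 in anti-miR-mix mice on the log2 scale, and their summed level ran from 331200 to 403800 in WT controls, 324900 to 360900 in APP controls and 319600 to 337600 in anti-miR-mix mice. The part of these shifts in the results below was not tested. In bulk tissue, fewer neurons, less RNA per neuron and a larger share of RNA from glia cannot be told apart.

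None of the 10 genes was called in APP controls against WT controls by DESeq2's Wald test (adjusted p under 0.05, over the genes left by DESeq2's independent filtering). In the same test 4.71% of 19284 genes were called. The fold changes of 9 of the 10 genes lay below 0, with a median of -0.09 on the log2 scale, against a median of -0.01 over all genes, of which 54.4% lay below 0. Unadjusted p-values under 0.05 were found for 2 of the 10, Map1b and Ina, and for 13.7% of all genes. By edgeR's quasi-likelihood test 0 of the 10 were called and 3.22% of all genes. The reference differed between the runs. With edgeR 52.2% of all genes lay below 0 (median -0.01), beside 9 of the 10 (median -0.09). With limma on the deposited normalized values it was 43.3% of all genes (median 0.02), beside 8 of the 10 (median -0.06). These runs differ in method and scaling, and that with limma also in the genes used, and the part of each was not tested.

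Between anti-miR-mix mice and APP controls, DESeq2 called none of the 10 genes and 0% of 19284 genes. The fold changes of 9 of the 10 lay above 0, by 0.11 or less, with a median of 0.03 on the log2 scale against -0.00 over all genes. None of the 10 had an unadjusted p under 0.05, against 552 of all genes, and edgeR called 0 of the 10 and 0 of all genes. This comparison and the one before share the APP control libraries, so the opposite sides of 0 are not independent observations. Against WT controls, anti-miR-mix mice also had none of the 10 genes called, while 8.96% of all genes were. Here 7 of the 10 lay below 0, beside 54.4% of all genes, and the median was -0.04 against -0.02 over all genes. Map1b alone had an unadjusted p under 0.05, beside 19.4% of all genes, and edgeR called 0 of the 10 and 6.06% of all genes. With limma on the deposited normalized values 5 of the 10 lay below 0 (median -0.01), beside 42.6% of all genes (median 0.02).

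**Figure D1:**
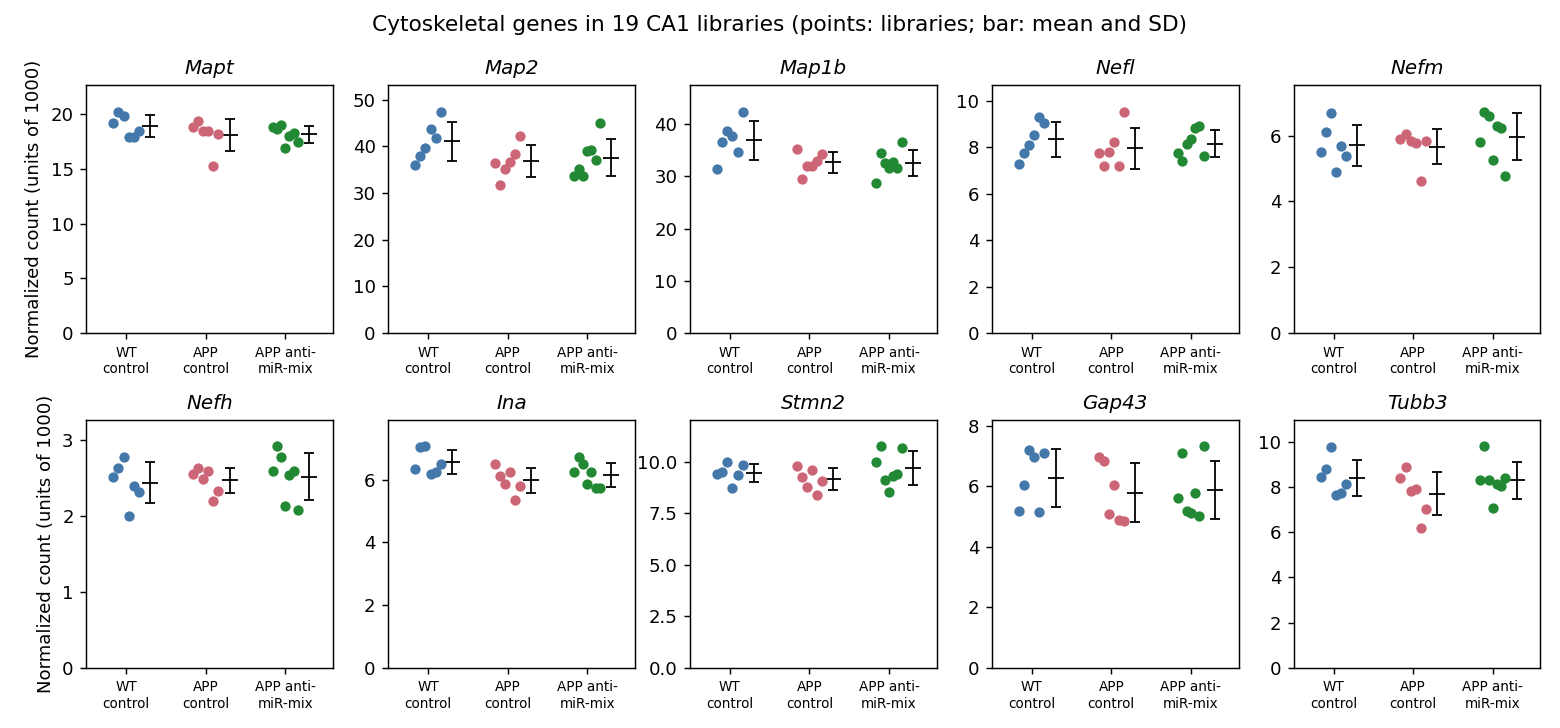
Normalized counts, in units of 1000 and on axes that start at 0, of the 10 genes in every library of WT controls, APP controls and anti-miR-mix mice, with each group's mean and SD beside the points. The ranges of the 3 groups overlap for every gene, and the APP control library at 15300 for Mapt stands below the other 5 of its group.

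Mapt, which encodes tau, lies on chromosome 11 (104231390 to 104332090, plus strand). Its normalized count, the read count divided by the library's DESeq2 size factor, ran from 17940 to 20260 in WT controls (median 18810), from 15300 to 19430 in APP controls (median 18490) and from 16940 to 19020 in anti-miR-mix mice (median 18330). The 3 ranges overlapped, and 5 of 6 APP control libraries lay below the WT control median. The mean was 18930 ± 979 (SD, n = 6) in WT controls, 18120 ± 1443 (n = 6) in APP controls and 18180 ± 766 (n = 7) in anti-miR-mix mice. APP controls differed from WT controls by -4.29% (95% interval -11.1% to 3.01%, DESeq2 adjusted p = 0.723), and anti-miR-mix mice from APP controls by 0.364% (-6.49% to 7.72%, adjusted p = 1.0). Mapt had the smallest within-group spread of the 10 genes, an SD of 0.09 on the log2 scale, and 27.4% of 6148 genes with a mean normalized count of at least 1000 had a smaller one. The lowest value was that of APP control 5, and without this library the log2 fold change between APP controls and WT controls went from -0.06 to -0.02.

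Map2 encodes the dendritic microtubule-associated protein (chromosome 1, 66175273 to 66442583, plus strand). It had the highest counts of the 10, from 35930 to 47490 in WT controls (median 40690), from 31790 to 42250 in APP controls (median 36570) and from 33710 to 44950 in anti-miR-mix mice (median 37120). The groups overlapped over most of their range, although 5 of 6 APP controls and 6 of 7 APP anti-miR-mix libraries lay below the WT control median. The difference from WT controls was -10.4% in APP controls (-20.0% to 0.357%, adjusted p = 0.377) and -8.59% in anti-miR-mix mice (-18.1% to 1.99%, adjusted p = 0.392). Over 29 alternatives the adjusted p ranged from 0.0234 to 0.72 and from 0.00606 to 0.703, and 1 of them, the fit with a replicate block, called Map2 in both comparisons. Between anti-miR-mix mice and APP controls it was 2.05% (-8.53% to 13.9%, adjusted p = 1.0).

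Map1b, the microtubule-associated protein of growing axons (chromosome 13, 99421446 to 99516540, minus strand), had the largest difference from WT controls of the 10 genes. In anti-miR-mix mice this held under 29 of 29 alternatives and in APP controls under 23 of 29, with Map2 (4), Gap43 (1) or Ina (1) largest in the others. Its normalized count ran from 31490 to 42420 in WT controls (median 37160), from 29570 to 35270 in APP controls (median 32480) and from 28690 to 36670 in anti-miR-mix mice (median 32630). All 6 APP controls and all 7 APP anti-miR-mix libraries lay below the WT control median, but the ranges overlapped, and WT control 1 was the lowest of its group. The difference from WT controls was -11.5% in APP controls (-19.5% to -2.73%, DESeq2 adjusted p = 0.142) and -11.7% in anti-miR-mix mice (-19.4% to -3.28%, adjusted p = 0.0689). Neither passed the threshold. Without WT control 1 both did, at a log2 fold change of -0.22 and an adjusted p of 0.0182 in APP controls, and of -0.22 and 0.00818 in anti-miR-mix mice. Without APP anti-miR-mix 7, the highest of its group, the second comparison also passed (adjusted p = 0.0243). The fit with a replicate block called Map1b in anti-miR-mix mice (adjusted p = 0.0187) and not in APP controls (0.0936). With the adjustment number, described below, as a linear term the adjusted p was 0.065 in APP controls and 0.0345 in anti-miR-mix mice, and over all alternatives it ranged from 0.00657 to 0.413 and from 0.00284 to 0.247.

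WT control 1 and WT control 5 had the highest summed levels of the amyloid-responsive glial genes among wild-type libraries, 27810 and 30010, while the other 4 lay between 15590 and 20610. Leaving both out gave Map1b a log2 fold change of -0.25 in APP controls (adjusted p = 0.00657) and -0.25 in anti-miR-mix mice (adjusted p = 0.00284). Within groups, the deviations of Map1b from the group mean had a correlation of -0.68 with those of the summed amyloid-responsive glial genes and of -0.63 with those of the oligodendrocyte genes, over 19 libraries. For Map2 the same correlations were -0.53 and -0.45, and for Mapt 0.31 and 0.50. With the summed general neuronal markers Map1b and Map2 each had a correlation of 0.55 and Mapt of -0.39. These values are descriptions of libraries from mixed tissue, and their part in the differences was not tested.

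**Figure D2:**
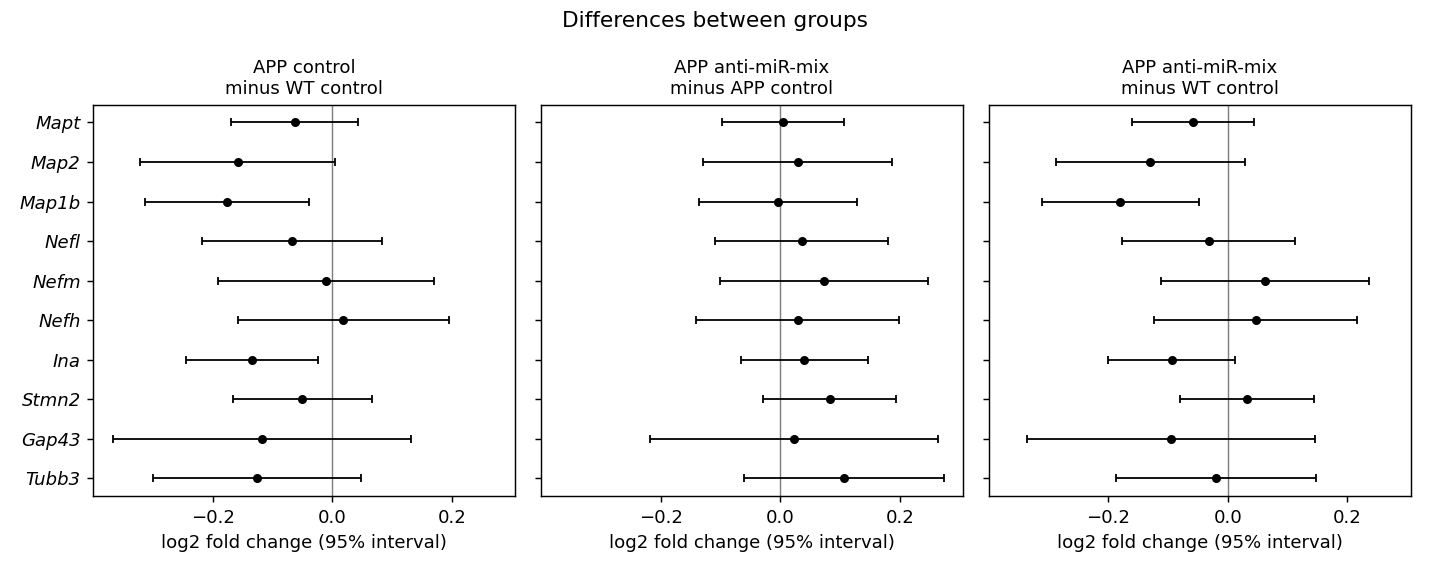
Log2 fold changes of the 10 genes (points) with 95% Wald intervals (bars) from DESeq2 in the 3 comparisons. Map1b and Ina lie below 0 with their whole interval for APP control minus WT control and Map1b for APP anti-miR-mix minus WT control, and none passes the adjusted threshold.

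The neurofilament genes Nefl and Nefm are neighbours on chromosome 14 and lie on opposite strands (68083863 to 68089095, plus, and 68082590 to 68124846, minus). Their annotated exons share 1108 bases, 32.8% of the exon length of Nefl and 19.2% of that of Nefm, and the library kit did not mark the strand. Reads from the shared bases cannot be assigned to 1 gene, and whether the counting dropped them is not given in the sources used here. For Ina 456 bases, 14.1% of its exons, are shared with Nt5c2 on the other strand.

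Nefl, the light chain, had normalized counts from 7286 to 9303 in WT controls (median 8321), from 7203 to 9544 in APP controls (median 7787) and from 7425 to 8931 in anti-miR-mix mice (median 8163). The 3 groups covered almost the same range. APP controls differed from WT controls by -4.58% (-14.0% to 5.91%, adjusted p = 0.831). On the log2 scale this was -0.07, and it ran from -0.13 without APP control 6 to -0.03 without WT control 5. Anti-miR-mix mice differed from APP controls by 2.52% (-7.27% to 13.4%, adjusted p = 1.0).

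Nefm, the medium chain, ran from 4890 to 6683 in WT controls (median 5599), from 4615 to 6066 in APP controls (median 5831) and from 4789 to 6735 in anti-miR-mix mice (median 6238). APP control 5 was the lowest of its group, and its other 5 libraries lay between 5788 and 6066. The difference of APP controls from WT controls was -0.722% (-12.4% to 12.5%, adjusted p = 0.99) and that of anti-miR-mix mice from APP controls 5.22% (-6.74% to 18.7%, adjusted p = 1.0). On the log2 scale the second was 0.07, and it ran from 0.02 without APP control 5 to 0.12 without APP anti-miR-mix 7. Nefh, the heavy chain on chromosome 11 (4938754 to 4948064, minus strand), had the lowest counts of the 10, from 1998 to 2781 in WT controls (median 2450), from 2203 to 2633 in APP controls (median 2520) and from 2076 to 2918 in anti-miR-mix mice (median 2586). The APP control range lay inside the WT control range. Nefh was the 1 gene with a fold change above 0 in APP controls against WT controls, 1.25% (-10.4% to 14.4%, adjusted p = 0.975).

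Ina encodes alpha-internexin, the neuronal intermediate filament protein that joins the neurofilament chains (chromosome 19, 47014698 to 47025327, plus strand). Its normalized count ran from 6188 to 7066 in WT controls (median 6425), from 5356 to 6496 in APP controls (median 5981) and from 5724 to 6721 in anti-miR-mix mice (median 6241). In APP control 5 of 6 libraries lay below the WT control median, and the ranges overlapped. The difference was -8.91% in APP controls (-15.7% to -1.63%, DESeq2 adjusted p = 0.185) and -6.30% in anti-miR-mix mice (-12.995% to 0.905%, adjusted p = 0.342). With the adjustment number as a linear term, the first had an adjusted p of 0.0387, and its range over all alternatives was 0.0387 to 0.403.

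Stmn2 encodes stathmin-2, which binds tubulin and regulates microtubule growth in axons (chromosome 3, 8509360 to 8561606, plus strand). Its normalized count ran from 8734 to 9984 in WT controls (median 9436), from 8362 to 9798 in APP controls (median 9170) and from 8530 to 10750 in anti-miR-mix mice (median 9421). The APP anti-miR-mix group reached highest, and the 3 ranges overlapped. APP controls differed from WT controls by -3.44% (-10.9% to 4.64%, adjusted p = 0.839) and anti-miR-mix mice from APP controls by 5.91% (-1.97% to 14.4%, adjusted p = 1.0). On the log2 scale the first was -0.05, and it ran from -0.07 to -0.03 with single libraries left out. With the adjustment number as a factor it was -0.02.

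Gap43, a membrane protein of growth cones and of plastic presynaptic terminals (chromosome 16, 42248442 to 42340651, minus strand), was the most variable of the 10 genes within groups, with an SD of 0.23 on the log2 scale. Normalized counts ran from 5137 to 7196 in WT controls (median 6502), from 4865 to 6971 in APP controls (median 5559) and from 5019 to 7319 in anti-miR-mix mice (median 5625). Each group held libraries at both ends of this range, as the plot of normalized counts shows. The difference of APP controls from WT controls was -7.86%, with the widest interval of the 10 (-22.5% to 9.55%, adjusted p = 0.814). On the log2 scale this was -0.12, and it ran from -0.18 without APP control 1 to -0.07 without APP control 6. It was -0.24 without WT control 1 and 5 together, which held the lowest Gap43 values of their group (5191 and 5137).

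Tubb3, the neuronal beta-tubulin (chromosome 8, 123411424 to 123422015, plus strand), ran from 7630 to 9745 in WT controls (median 8284), from 6202 to 8897 in APP controls (median 7865) and from 7045 to 9795 in anti-miR-mix mice (median 8292). APP control 5 was again the lowest library. APP controls differed from WT controls by -8.35% (-18.7% to 3.39%, adjusted p = 0.602). With single libraries left out this log2 fold change, -0.13, ran from -0.17 to -0.07, and it was nearest to 0 without APP control 5. The difference of anti-miR-mix mice from APP controls, 7.65% (-4.14% to 20.9%, adjusted p = 1.0), was the largest of the 10 in that comparison, as under 25 of 29 alternatives. Without APP control 5 its log2 fold change went from 0.11 to 0.05, and that of Stmn2, at 0.06, was then larger. Without APP anti-miR-mix 2 it was 0.06. APP control 5 had the lowest value of its group in 7 of the 10 genes, and WT control 4 that of its own group in 6.

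Of the 5 genes with seed matches none was called between anti-miR-mix mice and APP controls, where 0% of all genes were. For Mapt, Map1b and Gap43, the 3 predicted targets, the log2 fold change between anti-miR-mix mice and APP controls was 0.01 (SE 0.05), -0.00 (SE 0.07) and 0.02 (SE 0.12), each with an adjusted p of 1.0. Their 95% intervals were -6.49% to 7.72% for Mapt, -8.92% to 9.32% for Map1b and -14.0% to 20.1% for Gap43. Nefl and Ina, with 1 match to miR-146a-5p each, had fold changes of 0.04 (SE 0.07) and 0.04 (SE 0.05). The values of the 5 genes without a match ran from 0.03 to 0.11.

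Levels of different genes were compared per kilobase of annotated exon in WT controls. Tubb3 had the highest level, 4499 ± 422 normalized counts per kilobase (SD, n = 6), and Gap43 came next with 4117 ± 624.6. These neighbours did not differ beyond their spread, since Tubb3 was higher in 4 of 6 libraries. Mapt (2514 ± 130), Map2 (2498 ± 253), Nefl (2467 ± 227) and Map1b (2330 ± 234) had overlapping ranges. Ina (2026 ± 122), Stmn2 (1690 ± 78.5), Nefm (988 ± 107) and Nefh (610 ± 68.4) followed in that order, each higher than the next in 6 of 6 libraries. The heavy chain was thus the lowest of the neurofilament subunits. With the length of the longest annotated transcript in place of all exons, Map2 came first at 6565 ± 665, because its longest transcript of 6258 bases is much shorter than its merged exons of 16449 bases. Nefm and Nefh kept the last places. The order of the upper 8 therefore depends on which transcripts CA1 uses, which was not measured. The levels of Nefl, Nefm and Ina also include in their length the exon bases shared with a neighbour, and would be higher if reads there were dropped.

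The ratio of Nefm to Nefh counts hardly varied. It lay between 2.19 and 2.45 in WT controls, 2.095 and 2.495 in APP controls, and 2.25 and 2.48 in anti-miR-mix mice. The ratio of Nefl to Nefm ran from 1.10 to 1.75 over the 19 libraries, and that of Map2 to Nefh from 12.1 to 21.9. With the adjustment number described below, Nefm and Nefh were lower and Nefl was higher, and its part in these ratios was not tested. By these ratios the medium and heavy chains moved together from library to library, and the light chain did not move with them.

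This was seen over the whole set in the correlations of log2 values after subtraction of the group means (19 libraries, pseudocount 1). Nefm and Nefh had a Pearson r of 0.92 and a Spearman rho of 0.88, and r was 0.94 in WT controls, 0.83 in APP controls and 0.96 in anti-miR-mix mice. Mapt and Tubb3 had an r of 0.82, Ina and Nefh 0.79, and all pairs among Mapt, Nefm, Nefh, Ina and Tubb3 had an r between 0.70 and 0.92. Leaving out the 2 libraries farthest from the median of the first gene gave 0.91 for Nefm and Nefh and 0.69 for Mapt and Tubb3.

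Map2 went the other way from these genes. Its r was -0.71 with Nefh, -0.57 with Mapt and -0.48 with Tubb3, while it was 0.72 with Map1b and 0.55 with Nefl. The r of Map2 with Nefh was -0.60 in WT controls, -0.70 in APP controls and -0.81 in anti-miR-mix mice. Stmn2 was closest to Tubb3 (r = 0.74) and Gap43 was closest to Stmn2 (r = 0.69). Some pairs differed between groups, since Gap43 and Stmn2 had an r of 0.20 in WT controls, where Gap43 was closest to Map1b (r = 0.87), and of 0.81 and 0.88 in the groups of APP mice. Map2 and Nefl had 0.85 in WT controls, 0.73 in APP controls and 0.07 in anti-miR-mix mice, and none of these differences was tested. Nefl had an r of 0.09 with Nefm and of -0.21 with Nefh. All values share the same libraries and size factors.

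**Figure D3:**
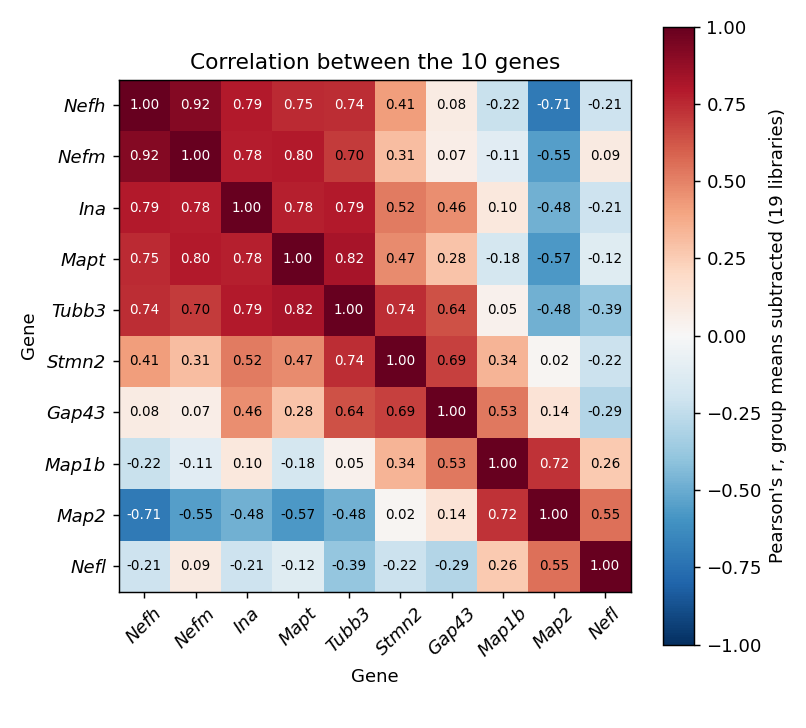
Pearson correlations between the 10 genes over 19 libraries, computed on log2(normalized count + 1) after each group's mean was subtracted, from -1 (blue) to 1 (red). Nefh, Nefm, Ina, Mapt and Tubb3 form a block of values from 0.70 to 0.92, and Map2 has values below 0 with each of them.

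The genes whose pattern was most like that of Mapt among 12737 genes with a mean normalized count of at least 100 were Ogdhl (r = 0.97), Sept8 (r = 0.96), Syt11 (r = 0.96), Slc7a10 (r = 0.96) and Lynx1 (r = 0.95). For Nefm they were Nat8l (r = 0.89), Ier5l (r = 0.88), Lynx1 (r = 0.87), Pak1 (r = 0.87) and Nfic (r = 0.85). Lynx1, which encodes a modulator of nicotinic receptors, was on both lists. Without subtracting the group means, 2 of the 5 genes most like Nefm remained.

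The libraries differed in a further number that the labels do not name. The deposited table of normalized log2 values departs from log2(CPM + 1) of the counts by a whole number from 1 to 5 per library times a slope per gene. It is called the adjustment number here, and its groups are alike, with values of 1 to 5 in WT controls and 1 to 4 in both groups of APP mice. Within each group it never decreased from a lower to a higher replicate number of the labels, so it goes with that number. The mitochondrial share of the counts also moved with it, from 2.84% to 3.39% in the libraries at 1 or 2, from 3.76% to 4.87% at 3, from 4.42% to 4.72% at 4 and 4.32% in the library at 5, and its part in the values below was not tested. The log2 level of Map2 was higher by 0.09 per step of this number (r = 0.79 over 19 libraries after subtraction of the group means), with r of 0.92 in WT controls, 0.61 in APP controls and 0.80 in anti-miR-mix mice. Nefl was also higher, by 0.06 per step (r = 0.60), and Map1b by 0.04 (r = 0.47). For Nefl r was 0.93, 0.37 and 0.45 in the 3 groups in the same order, and for Map1b it was 0.65, -0.00 and 0.54, so that APP controls showed no such relation for Map1b. Tubb3 and Nefh were lower by 0.07 per step (r = -0.56 and -0.54), and Ina and Mapt had r of -0.63 and -0.60.

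The mean count of Map2 was 35410 in the 3 libraries at 1, 35670 in the 5 at 2, 38740 in the 5 at 3, 40890 in the 5 at 4 and 47490 in the 1 library at 5. That of Nefh was 2551, 2749, 2350, 2319 and 2312 in the same order, so it was highest at 2 and not at 1. GC content of the longest transcript, given beside these values as a description, was 47.8% for Map2, 47.6% for Map1b and 48.9% for Nefl, and 52.5% for Mapt, 55.5% for Ina, 57.8% for Nefm, 57.9% for Tubb3 and 58.4% for Nefh. Stmn2, with the lowest GC content of 41.3%, had an r of -0.20 with the number and does not follow that order. Across 19224 genes tested, the slope and GC content had a Spearman rho of -0.65, where genes are not independent replicates. With the number as a factor in the fit, 0 of the 10 genes were called in each comparison, and of all genes 874 in APP controls and 1733 in anti-miR-mix mice against WT controls and 0 between the groups of APP mice. Its part in the correlations above was not tested.

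**Figure D4:**
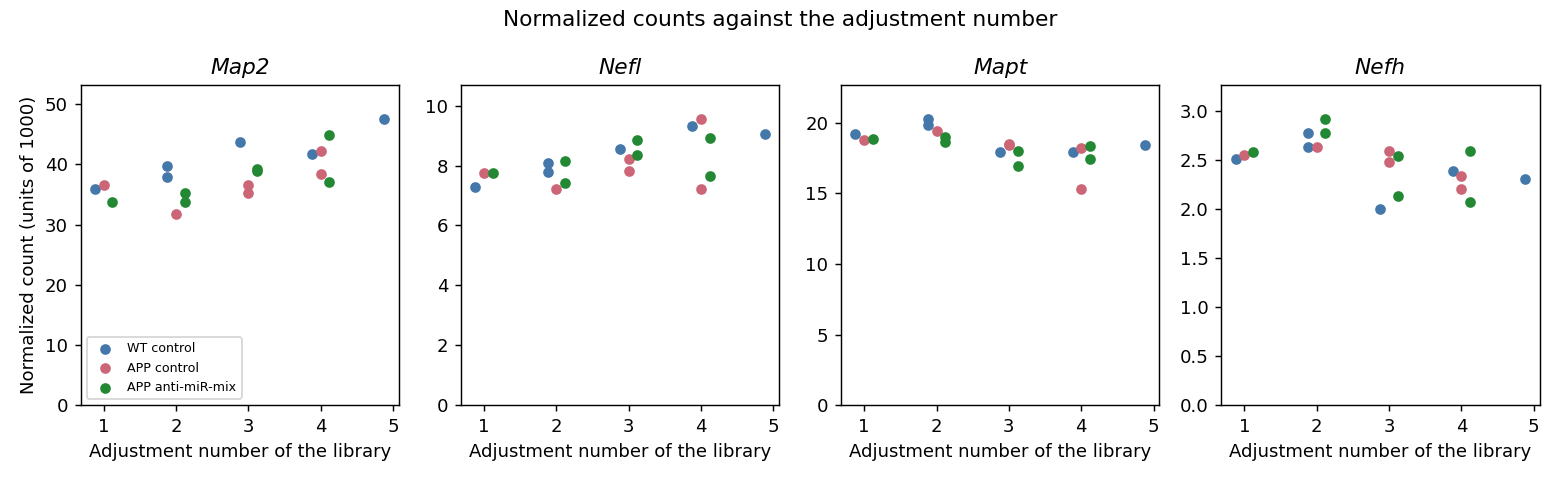
Normalized counts, in units of 1000, of Map2, Nefl, Mapt and Nefh in 19 libraries against the adjustment number of the library, with points coloured by group and shifted sideways to stay apart. Over the 3 groups together the mean of Map2 is 35410 at 1, 35670 at 2 and 40890 at 4, and that of Nefh is 2551, 2749 and 2319.

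Other genes of the cytoskeleton were taken from 9 lists that hold 162 genes beside the 10, of which 161 were tested. In APP controls against WT control 7 were called, 4.35% against 4.71% of all genes, with 2 higher and 5 lower, and 130 of the 161 lay below 0 (median -0.06), as did 54.4% of all genes. In anti-miR-mix mice against WT control 12 were called, 7.45% against 8.96% of all genes, with 5 higher and 7 lower, and 121 lay below 0 (median -0.05), again beside 54.4% of all genes. Between the groups of APP mice DESeq2 called 0 and the median was 0.00. At an unadjusted p under 0.05 there were 2, and edgeR also called 0. Against WT controls edgeR called 3 of the 7 (Gfap, Atf3 and Ank3) and 6 of the 12 (these with Kif3a, Dclk1 and Mapk3). The calls of Gfap, Atf3 and Ank3 held in both comparisons, and those of Kif3a and Dclk1 in anti-miR-mix mice, with each of the 19 libraries left out in turn. The other calls each ended without at least 1 library. That of Kif3a in APP controls ended without WT control 3 (adjusted p = 0.0505) and that of Agbl4 without WT control 2 or 6, and each of the rest ended without any 1 of 5 to 11 libraries.

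Among 23 microtubule-associated proteins, 1 was called. Dclk1, a doublecortin-like kinase that binds microtubules, ran from 26000 to 33460 in WT controls, 22150 to 27620 in APP controls and 23990 to 26780 in anti-miR-mix mice, and fell by 0.20 on the log2 scale in APP controls (SE 0.06, adjusted p = 0.0212) and in anti-miR-mix mice (SE 0.06, adjusted p = 0.00936). By edgeR the adjusted p was 0.0704 and 0.0446. The median of the list was -0.07 and -0.08. Among 13 tubulins none was called in APP controls, where Tuba4a had the smallest p (-0.14, adjusted p = 0.342), and Tuba1c was called in anti-miR-mix mice against WT controls at a low level, with 6.04 to 33.4 normalized counts in WT controls and 16.6 to 43.2 in anti-miR-mix mice (log2 fold change 1.00, SE 0.35, adjusted p = 0.0431, edgeR 0.0878).

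Of 19 genes that modify, sever or fold tubulin, Ttl, the tubulin tyrosine ligase, fell in APP controls (-0.14, SE 0.04, adjusted p = 0.0367) and Agbl4, a carboxypeptidase that shortens glutamate chains on tubulin, fell in anti-miR-mix mice against WT controls (-0.28, SE 0.09, adjusted p = 0.0182). Of 24 tau kinases and their activators none was called in APP controls, where 21 lay below 0. In anti-miR-mix mice against WT controls Mapk10, the neuronal JNK, fell (-0.14, SE 0.04, adjusted p = 0.0238) and Mapk3, which encodes ERK1, rose (0.28, SE 0.09, adjusted p = 0.024). None of 13 tau phosphatases and the isomerase was called, and all 13 lay below 0 against WT controls in both groups of APP mice, with medians of -0.08 and -0.09. In each comparison 54.4% of all genes and all 9 general neuronal markers also lay below 0. With limma on the deposited table it was 11 and 12 of the 13, beside 43.3% and 42.6% of all genes and 8 of the 9 markers in each. Of the 13, Ppp5c had the smallest p in APP controls (-0.13, adjusted p = 0.349).

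Motor proteins and the membrane skeleton held further genes that fell. Kif3a, a subunit of kinesin-2, fell by 0.18 on the log2 scale in APP controls (SE 0.05, adjusted p = 0.0117) and in anti-miR-mix mice (SE 0.05, adjusted p = 0.0044), and Kif21a by 0.17 and 0.15 (adjusted p = 0.0266 and 0.031). Of the 24 genes of that list 23 lay below 0 in each of these comparisons, beside 54.4% of all genes and 9 of the 9 general neuronal markers. With limma on the deposited table it was 20 and 19 of 24, beside 43.3% and 42.6% of all genes. Ank3, which encodes ankyrin-G, the organizer of the axon initial segment, ran from 14610 to 16160 in WT controls, 12590 to 14500 in APP controls and 12160 to 14280 in anti-miR-mix mice. WT controls overlapped with neither group of APP mice, and these 2 groups overlapped with each other. It fell by 0.18 (SE 0.05, adjusted p = 0.00474) and 0.21 (SE 0.05, adjusted p = 0.000332), and by edgeR the adjusted p was 0.0443 and 0.0131. In anti-miR-mix mice against WT controls Sptan1, the alpha chain of brain spectrin, fell by 0.16 (adjusted p = 0.0421) and Add3, an adducin, rose by 0.21 (adjusted p = 0.0363).

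Among 9 other intermediate filament genes, 1 was called. Gfap, the filament of astrocytes, rose by 1.44 on the log2 scale in APP controls (SE 0.23, adjusted p = 4.08e-08) and by 1.40 in anti-miR-mix mice (SE 0.22, adjusted p = 1.75e-08), from a WT control mean of 18780 to 51110 and 49550, with no overlap with WT controls. Of the 9 genes 4 lay below 0 in APP controls and 2 in anti-miR-mix mice, with medians of 0.01 and 0.26. Of 17 stathmins and growth-associated genes tested, 1 was called, the injury-induced transcription factor Atf3, which rose by 1.30 (SE 0.28, adjusted p = 0.00021) and 1.68 (SE 0.27, adjusted p = 4.61e-08) from a mean of 44.0 normalized counts in WT controls. Gfap is also on the list of amyloid-responsive glia, and its values are not a measure of neurons.

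**Figure D5:**
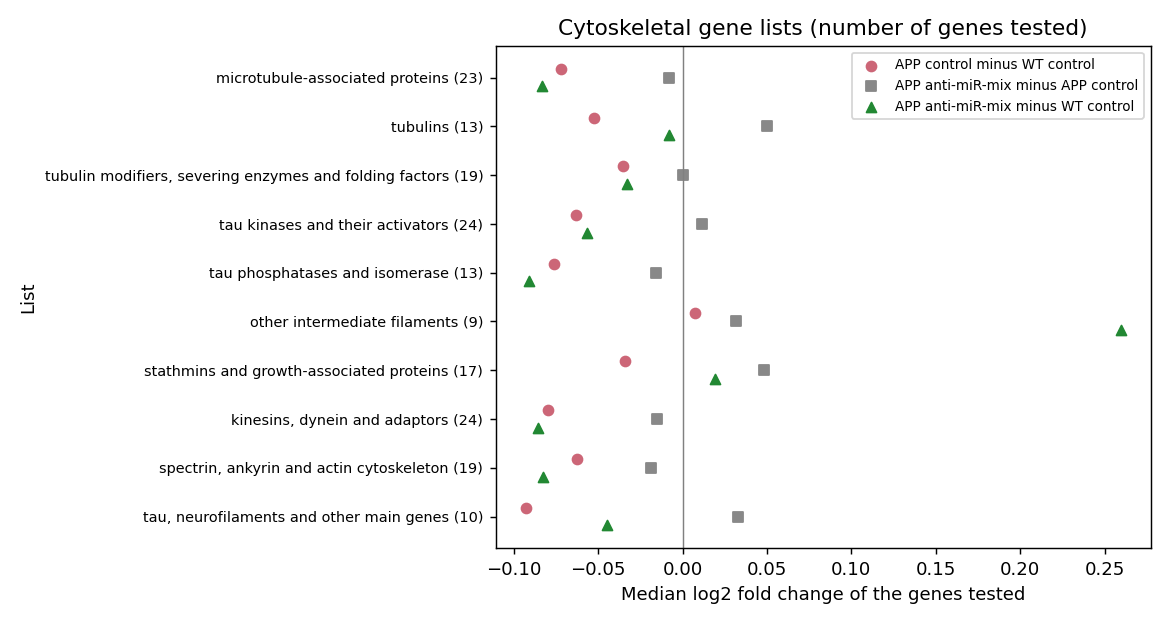
Median log2 fold change of the genes tested in each of 9 cytoskeletal lists and in the 10 main genes, with the number of genes in brackets, for the 3 comparisons. Most medians lie between -0.09 and 0.05, and the other intermediate filaments reach 0.26 for APP anti-miR-mix minus WT control.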

How the data were processed

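Per the labels, libraries were made with the TruSeq RNA kit v2, and the authors aligned reads to mm10 with STAR 2.5.2b and counted them per gene with featureCounts (Subread 1.5.1) after FastQC 0.11.5, per the submitters' processing notes. The annotation release and the strand setting are not given in the sources used here. The deposited raw counts (19 libraries) were used for all main results. The deposited table of normalized log2 values by the authors, with 18825 genes, served only as an alternative.

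Genes with at least 5 counts in 50% of libraries were kept (19297) and fitted with DESeq2 1.42.0 in 1 fit of all 3 groups (Wald test, unshrunken fold changes, Benjamini-Hochberg adjustment over the genes left by its independent filtering, threshold 0.05). For 13 genes with an outlying count, none of the 10 described, DESeq2 gave no p, and in 2 of these it replaced a count, which left 19284 tested. An adjusted p was given for 18161 of them in each comparison against WT controls and for all 19284 between the groups of APP mice. Alternatives used edgeR 4.0.16 (quasi-likelihood, TMM) and limma 3.58.1, other filters, library subsets and covariates, in R 4.3.3. Other values were computed in Python 3.11.15. Code was tested on simulated data. Symbols came from GENCODE M21, which matched 48349 of 48709 identifiers. The 2 most alike libraries of any group gave a chi-square per gene of 4.94, above sampling noise, so all counted as separate samples, and p-values measure the spread between them.

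All 10 genes were named, and of each list up to 4 called genes of smallest adjusted p or, where none was called, 1 of smallest p, and the 5 genes most like Mapt and Nefm. Genes and lists were chosen with earlier results of these data known.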

Additional observations from a re-analysis of the deposited data

Results flagged for a closer look

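For each of the 10 genes in each of the 3 groups, the highest and the lowest library were compared with the rest by Dixon's criterion, which chance passes in about 1 of 20 groups (1.5 of the 30 examined). APP control 5 stood apart from the other APP control libraries in both cases that passed. Its Mapt value was 15300 normalized counts, against 18200 to 19430 in the other 5, and its Nefm value was 4615, against 5788 to 6066. The same library was the lowest of its group in 7 of the 10 genes. Among WT controls, library 4 was the lowest in 6 and library 3 the highest in 6. Several of the 10 genes correlate with each other, so these counts are not independent observations. Without it the log2 fold change of Mapt was -0.02 in APP controls against WT controls and -0.04 in anti-miR-mix mice against APP controls, and neither was called. Its summed level of the 8 amyloid-responsive glial genes, 33040 normalized counts, was the lowest among APP mice, where the others ran from 34920 to 90930. Beside the other 5 APP controls its summed levels were also lowest for oligodendrocytes (149600, against 190500 to 262700), oligodendrocyte precursors (4893, against 5416 to 5766), choroid plexus (3948, against 5843 to 7478), microglia (13100, against 16760 to 28730) and interneurons (28890, against 29180 to 31580), and highest for endothelium (3312, against 2492 to 2733). For general neurons it lay inside their range (339500, against 324900 to 360900). Over 19 libraries the deviations of Mapt had an r of 0.50 with those of the oligodendrocyte genes and of 0.75 with those of their precursors. The part of these shifts in its Mapt and Nefm values was not tested.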

How the results depend on the processing

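Each comparison was recomputed under 10 other settings and with each of 19 libraries left out. Between anti-miR-mix mice and APP controls, 0 of the 10 genes and 0 list genes were called in every run, with a smallest adjusted p of 0.987 among the 10. Against WT controls the exceptions to 0 of 10 were these. The replicate numbers were not taken to pair the samples, because not every same-numbered pair had a correlation of deviations over 0.1. Of 18 such pairs 10 did (-0.12 to 0.35, median 0.11), against 21 of 102 pairs with different numbers (median -0.01), and 5 of 19 libraries were closest to their own number. The adjustment number also goes with the replicate number. The replicate block called 1 gene in APP controls (Map2, adjusted p = 0.0234) and 2 in anti-miR-mix mice (Map1b, 0.0187, and Map2, 0.00606), with 1222, 1 and 2202 calls over all genes against 908, 0 and 1727. The adjustment number as a linear term, added after seeing the data, called 1 (Ina) and 1 (Map1b). The fit without WT control 1 and 5 together, which had the lowest Map1b values of their group, called 1 and 1 (Map1b). Over all genes the linear term called 1329 and 2371, and the fit without both libraries 1176 and 1958. With single libraries left out the count ran from 0 to 1 in both, through WT control 1 and APP anti-miR-mix 7. These causes were not tested.

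Of the list genes, 7 and 12 were called, and all other settings for these counts were chosen after seeing the data. With edgeR this was 3 and 6, without WT control 5 and APP anti-miR-mix 6 it was 4 and 7, and with single libraries left out 4 to 10 and 5 to 17. For anti-miR-mix mice against WT controls the replicate block gave 24 and the linear term 27. Without 1 of WT control 2, 3, 5 or 6 or APP control 2 or 3 the first count was 4, and without WT control 6 or APP anti-miR-mix 1 the second was 5 or 7. Over all genes, anti-miR-mix mice against WT controls had 1078 higher and 649 lower, against 881 and 288 with edgeR and 1451 and 459 with limma. Between the groups of APP mice, fitting only the 2 groups called 3 of all genes against 0.

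Fold changes near 0 crossed it, none of them called. For Nefm in APP controls against WT controls the log2 value was 0.0316 with the adjustment number as a factor, 0.0236 with limma on the deposited table and -0.0505 to 0.0421 with single libraries left out, and for Nefh -0.0326 to 0.0605. Between anti-miR-mix mice and APP controls, the factor gave -0.0062 for Mapt and -0.0021 for Nefh, and the replicate block -0.0164 for Map2 and -0.0324 for Gap43. Map1b was 0.0025 with edgeR, 0.0001 with the linear term, 0.0062 without WT control 5 and APP anti-miR-mix 6, and 0.0041 with limma. With single libraries left out the ranges were -0.0388 to 0.0257 for Mapt, -0.0094 to 0.0711 for Nefh, -0.0336 to 0.0253 for Map1b, -0.0189 to 0.0728 for Map2 and -0.0374 to 0.0837 for Gap43. For anti-miR-mix mice against WT controls, limma gave 0.0135 for Nefl and 0.0118 for Tubb3, the factor 0.0102 for Tubb3, and single libraries left out -0.0676 to 0.0028 for Nefl, -0.0037 to 0.0897 for Nefh and -0.0634 to 0.0285 for Tubb3.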
